A study of Homo sapiens with 12 samples.

Results

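The genes described here are the molecular chaperones whose symbols begin with HSPA, HSPB, HSPD, HSPE, HSPH, HSP90, DNAJA, DNAJB, DNAJC or CCT and a digit. Of 98 such symbols, 8 with a hyphen and 7 ending in P or in P and digits were left out, which leaves 83 of the 27968 symbols listed. By family they are 13 HSPA (HSP70), 3 HSP110, 3 HSP90, 8 HSPB, the HSPD1 and HSPE1 pair, 4 DNAJA, 13 DNAJB, 28 DNAJC and 9 CCT genes. By the place where the protein works, 52 were assigned to the cytosol and nucleus, 14 to the endoplasmic reticulum, 9 to the mitochondrion and 8 to other or unassigned places.

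RNA sequencing of total RNA depleted of ribosomal RNA compared human cancer cells in 3D culture within Matrigel, a basement membrane extract, with the same cells in 2D culture, to find genes that the extracellular matrix regulates. A549 is an established lung adenocarcinoma line and MDA-MB-231 an established hormone receptor negative breast cancer line. The 4 groups were A549 3D, A549 2D, MDA-MB-231 3D and MDA-MB-231 2D, with 3 libraries each. All were grown untreated in DMEM with 10% FBS, and RNA was taken on day 4 in 3D and at about 80% confluence in 2D. Each line is thus a single established line, and the time of RNA extraction was set by day in 3D and by confluence in 2D. Nothing in the labels tells if the libraries within each group stem from different cultures. The p-values thus measure the spread between these libraries, which may be technical. That spread was unequal: its coefficient of variation was 0.180 for A549 3D, against 0.0377 to 0.0554 for the other groups. All groups were tested in a single fit. Standard errors and p-values of A549 therefore do not rest on the wider spread of its own 3D libraries alone, and may be too small.

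HSP70 proteins bind exposed stretches of unfolded proteins in cycles driven by ATP, J-domain proteins (DNAJA, DNAJB, DNAJC) bring them substrates and start ATP hydrolysis, and HSP110 proteins release the ADP. HSP90 finishes the folding of kinases and receptors, the small HSPB proteins hold unfolded proteins without ATP, and the ring-shaped CCT chaperonin folds actin and tubulin. The endoplasmic reticulum and the mitochondrion each have an HSP70 with partners of its own. Heat shock factors raise many cytosolic chaperones under stress, and the unfolded protein response raises those of the endoplasmic reticulum.

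Both regulators have well-known DNA elements, and the chaperone promoters that hold them are shown first because the values of these genes are followed below. RefSeq promoter sequences (GRCh38.p14, from 250 bases before to 50 bases after each listed start) were matched to 72 of the 83 genes. The heat shock element was searched on both strands as GAA, TTC and GAA with 2 unspecified bases between one and the next, and was found in 7 of the 72 genes (9.72%), against 166 of all 27305 genes with a promoter (0.608%). The 7 genes were HSPA8, HSPA6, HSP90AA1, HSP90AB1, HSPD1, DNAJA1 and DNAJB6. The endoplasmic reticulum stress element was searched on both strands as CCAAT and CCACG with 9 unspecified bases between them, and was found in HSPA5 and HSP90B1 (2.78%), against 0.0916% of all genes. No match of one motif overlapped a match of the other in a chaperone promoter, while HSPD1 holds 2 heat shock matches that overlap each other. A match is a description of the letters and does not show binding. Capitals mark each match in the stretches below, which lie before the start site and run 5′ to 3′ on the strand of the gene. They are chr11:123062164-123062381 (minus strand) for HSPA8, chr14:102087105-102087147 (minus) for HSP90AA1, chr6:44247763-44247858 (plus) for HSP90AB1, chr1:161524451-161524493 (plus) for HSPA6, chr7:157336858-157336900 (plus) for DNAJB6, chr9:125241376-125241424 (minus) for HSPA5 and chr12:103930201-103930354 (plus) for HSP90B1.
HSPA8: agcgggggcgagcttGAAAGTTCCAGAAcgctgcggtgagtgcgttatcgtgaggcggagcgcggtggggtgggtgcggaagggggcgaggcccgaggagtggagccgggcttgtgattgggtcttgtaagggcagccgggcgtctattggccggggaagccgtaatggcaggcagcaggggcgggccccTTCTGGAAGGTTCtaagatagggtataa
HSP90AA1: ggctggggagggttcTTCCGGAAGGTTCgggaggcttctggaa
HSP90AB1: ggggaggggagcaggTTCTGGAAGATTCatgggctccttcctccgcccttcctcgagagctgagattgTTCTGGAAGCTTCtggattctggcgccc
HSPA6: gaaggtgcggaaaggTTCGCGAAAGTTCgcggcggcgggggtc
DNAJB6: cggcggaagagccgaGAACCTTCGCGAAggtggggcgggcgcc
HSPA5: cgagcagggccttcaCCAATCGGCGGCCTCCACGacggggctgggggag
HSP90B1: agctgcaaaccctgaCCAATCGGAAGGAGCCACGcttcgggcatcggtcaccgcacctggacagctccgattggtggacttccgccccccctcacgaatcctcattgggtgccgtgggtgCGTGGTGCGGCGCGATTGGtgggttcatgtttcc

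Library totals ran from 5609327 to 28171901 estimated counts. Ribosomal RNA genes took 3.53 to 16.5% of the counts in A549 3D, against 0.311 to 0.483% in A549 2D, and 4.01 to 6.50% in MDA-MB-231 3D, against 1.12 to 1.18% in MDA-MB-231 2D. Fragments averaged 138 bases in A549 3D, against 181 bases in A549 2D. They averaged 185 bases in MDA-MB-231 3D, against 213 bases in MDA-MB-231 2D. A549 3D replicate 1 stood apart with 16.5% ribosomal RNA, so leading counts are also given without it. A549 3D replicate 2 had the lowest total, 5609327 counts. With replicate 2 left out, 5609 of 15638 genes rose and 5022 fell in A549, against 5222 and 4820 of 15304 with all libraries. Of the lung epithelial markers, KRT8 and KRT18 were high in A549, while NKX2-1, SFTPB and SFTPC were at or near 0 TPM. EPCAM had 7.63 TPM in A549 3D, against 3.36 TPM in A549 2D, and was higher in MDA-MB-231, with 9.53 TPM in MDA-MB-231 3D, against 33.7 TPM in MDA-MB-231 2D. In MDA-MB-231, VIM and CD44 were high and ESR1 and PGR near 0 TPM. CAV1 averaged 172 TPM in MDA-MB-231 3D and 514 TPM in MDA-MB-231 2D, against 46.1 TPM in A549 3D and 375 TPM in A549 2D. ERBB2 and GATA3, chosen as low markers, were not lower in MDA-MB-231 than in A549. ERBB2 averaged 28.1 TPM in MDA-MB-231 3D and 21.2 TPM in 2D, against 17.1 and 21.1 TPM in A549. GATA3 averaged 5.64 TPM in MDA-MB-231 3D and 4.20 TPM in 2D, against 0.877 and 0.377 TPM in A549. The 4 leukocyte markers summed to 16.8 to 29.1 TPM in A549 3D, against 4.55 to 5.07 TPM in A549 2D. In the other line they reached 247 to 274 TPM in MDA-MB-231 3D, against 129 to 148 TPM in MDA-MB-231 2D. CD68 and CD14 made up most of these sums, while PTPRC, the defining leukocyte marker, averaged at most 0.27 TPM in any group, and DCN and HBA1 were at 0. Ribosomal RNA, fragment length and the leukocyte sums thus differed between 3D and 2D, and their part in the results was not tested.

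Of the 83 genes, 69 passed the filter on low counts and were tested, and 14 did not. The 14 were HSPA7, HSPB2, HSPB3, HSPB6, HSPB7, HSPB9, DNAJA4, DNAJB3, DNAJB7, DNAJB8, DNAJB13, DNAJC5B, DNAJC5G and CCT8L2, and the highest value among them in any library was 0.52 TPM, for HSPB6. HSPB3 and CCT8L2 were at 0 in all 12 libraries. Of the HSPB genes, 5 of 8 did not pass, which left HSPB1, HSPB8 and HSPB11 as the tested members of that family.

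Levels in TPM, which is scaled for transcript length and so allows genes to be compared with each other, were led by cytosolic chaperones. HSPA8, the constitutive HSP70, averaged 1132 ± 168 TPM in A549 3D, against 2124 ± 15.5 TPM in A549 2D, and 2781 ± 71.8 TPM in MDA-MB-231 3D, against 3951 ± 32.2 TPM in MDA-MB-231 2D (SD, n = 3 each). It was first in order in all groups except MDA-MB-231 3D, where HSP90AB1, the constitutive cytosolic HSP90, stood above it with 3003 ± 95.1 TPM. The 6 most abundant genes held 49.2% of the summed TPM of the 83 genes in A549 3D, against 51.5% in A549 2D. They held 61.1% in MDA-MB-231 3D, against 58.0% in MDA-MB-231 2D. HSP90B1, the HSP90 of the endoplasmic reticulum, was the fourth most abundant in both MDA-MB-231 groups, while in A549 the third place belonged to HSPD1, the mitochondrial HSP60. TPM values here include structural RNAs in their total, which lowers all other genes where those RNAs are high. On the log2(TPM + 1) scale the median of all tested genes moved by -0.38 between A549 3D and A549 2D and by -0.25 between MDA-MB-231 3D and MDA-MB-231 2D. Changes between groups are therefore given in normalised CPM (counts scaled to library size with the trimmed mean of M values), and those with TPM stand relative to that shift.

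**Figure D1:**
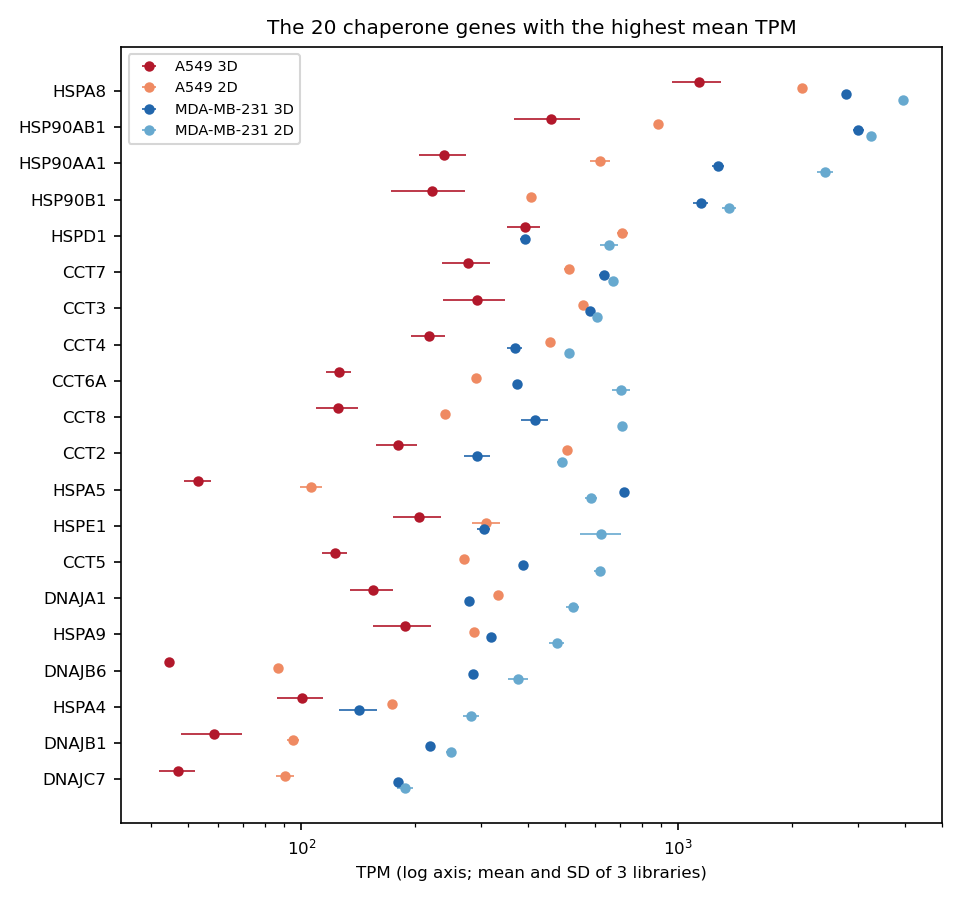
Mean TPM (points, log axis) and SD (bars, n = 3 libraries) of the 20 chaperone genes with the highest mean TPM, in A549 3D, A549 2D, MDA-MB-231 3D and MDA-MB-231 2D. HSPA8 and HSP90AB1 lead, and the order of genes within a group can be read directly, while the lower position of both 3D groups also holds the shift of all genes on the TPM scale.

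In A549, chaperone transcripts were lower in 3D than in 2D more often than higher: 35 of the 69 tested genes fell and 14 rose at an adjusted p under 0.05 (edgeR quasi-likelihood test, Benjamini-Hochberg adjustment over all 15304 genes), and 20 did not pass. Of the chaperones, 50.7% fell and 20.3% rose, against 31.5% and 34.1% of all genes tested (65.6% in all). The median log2 fold change of the chaperones was -0.27, against 0.03 over all genes. Without A549 3D replicate 1, 33 fell and 12 rose, and with limma on log2(TPM + 1) 53 fell and 5 rose (39 and 15 once each library was centred on its median). The summed level of all 83 genes was 14250, 15070 and 15959 CPM in A549 3D, against 19738, 19478 and 18779 CPM in A549 2D, so the 3 libraries in 3D lay below all 3 in 2D. Changes were mostly modest, as 10 of the 69 reached 2-fold in either direction, all of them past the test, against 26% of all genes that did both. In bulk RNA, fewer cells of a kind and less RNA per cell cannot be told apart.

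In MDA-MB-231, 31 of the 69 genes fell and 19 rose in 3D and 19 did not pass, which is 44.9% and 27.5%, against 34.2% and 33.4% of all genes (67.6% in all). The median was -0.16, against 0 over all genes, and with limma on log2(TPM + 1) 44 fell and 7 rose (28 and 20 after centring). The summed level was 23069, 23269 and 23076 CPM in MDA-MB-231 3D, against 24119, 23107 and 24005 CPM in MDA-MB-231 2D, and these ranges overlapped. In this line, 11 of the 69 genes reached 2-fold, all of them past the test, against 23.7% of all genes that did both.

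The 2 lines share no library, so their calls can be set side by side. In both lines, 19 of the 69 genes fell in 3D (27.5%), against 16.1% of all genes tested, and 7 rose (10.1%), against 15.3%. The 19 were HSPA14, HSPA4, HSPA4L, HSPH1, HSPA13, HSPD1, HSP90AA1, DNAJA1, DNAJA2, DNAJC2, DNAJC6, DNAJC10, DNAJC21, DNAJC24, DNAJC25, CCT2, CCT5, CCT6A and CCT8. The 7 were HSPB1, HSPA1B, DNAJB5, DNAJC1, DNAJC4, DNAJC18 and DNAJC30. With limma on log2(TPM + 1), 37 fell and 2 rose in both lines, and after centring 20 and 7 did. When the 6 libraries of each line were fitted alone, 15 of the 19 fell in both, without DNAJA2, DNAJC21, HSPA4 and HSPD1. With a trend on gene length removed, 15 of the 19 did, without CCT5, DNAJA2, HSPA4 and HSPA4L. Without A549 3D replicate 1 all 19 fell in both lines, while 4 of the 7 rose in both, as DNAJB5, DNAJC18 and DNAJC30 no longer passed in A549. The 7 also came to 4 without A549 2D replicate 2. Opposite calls were given to 11 genes: HSPA5, HSPA6, HSP90AB1, DNAJC7, DNAJC11, CCT3 and CCT7 fell in A549 and rose in MDA-MB-231 (10.1% as a share, against 7.21% of all genes), and HSPB8, DNAJB9, DNAJC13 and CCT6B rose in A549 and fell in MDA-MB-231 (5.8%, against 6.97%). The 4 came to 2 without MDA-MB-231 3D replicate 2, 2D replicate 1 or 2D replicate 3. With limma on log2(TPM + 1), 2 of the 7 and 1 of the 4 kept their opposite calls, and after centring 6 of the 7 and 1 of the 4 did.

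**Figure D2:**
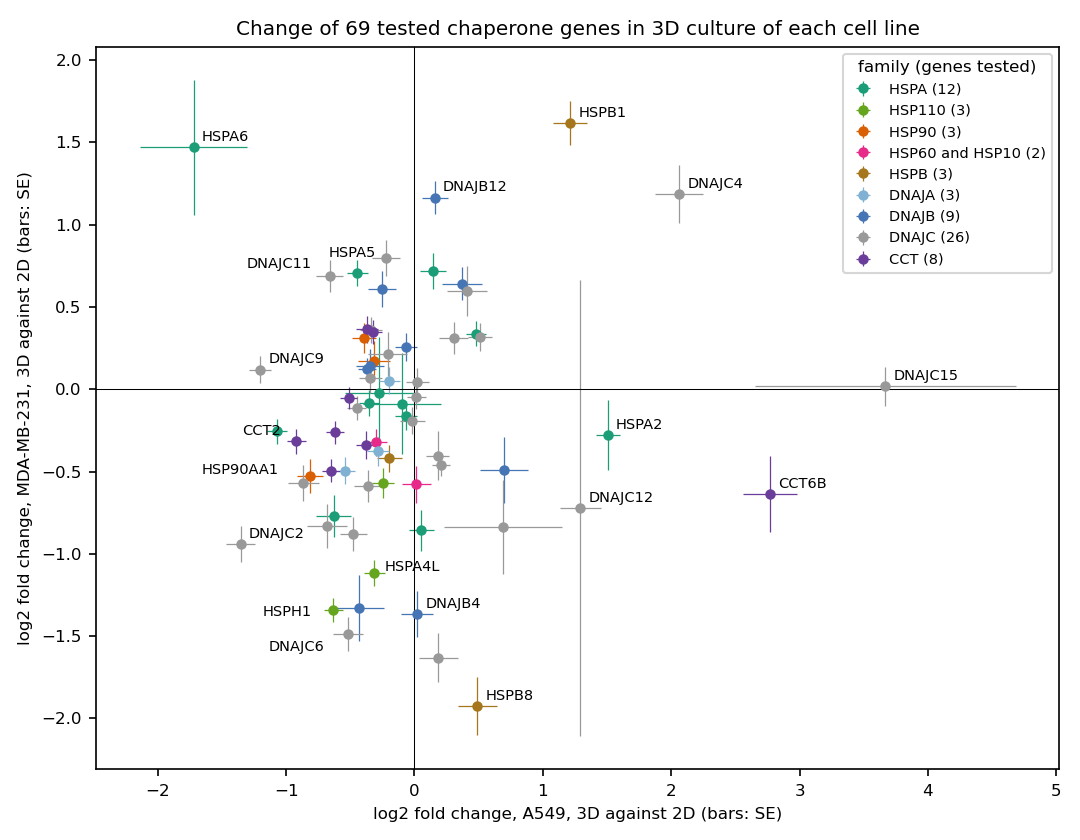
Each point is a tested chaperone gene: the horizontal axis is its log2 fold change in A549 (3D against 2D), the vertical axis that in MDA-MB-231, bars are standard errors and colours are families. Most HSP110 and CCT genes lie at the lower left, HSPB1 and DNAJC4 at the upper right, and HSPA2, CCT6B and DNAJC15 far to the right, of which the last rests on few counts.

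The HSP110 genes, which release ADP from HSP70, fell in both lines (3 of 3 in each). Of all genes, 31.5% fell in A549 and 34.2% in MDA-MB-231. With a trend on gene length removed, however, 1 of 3, HSPH1, fell in A549. HSPH1 had 187, 189 and 188 CPM in A549 3D, against 293, 292 and 289.6 CPM in A549 2D, and 125, 106 and 112 CPM in MDA-MB-231 3D, against 289, 291 and 289.9 CPM in MDA-MB-231 2D. The 2D libraries of the 2 lines overlapped, and no library in 3D reached the 2D range of its line. The log2 fold change was -0.63 ± 0.07 in A549 (± SE, as for all log2 changes below; edgeR adjusted p = 1.39e-06) and -1.34 ± 0.07 in MDA-MB-231 (edgeR adjusted p = 8.18e-10), and the difference of 0.71 ± 0.10 also passed (edgeR adjusted p = 2.33e-05). HSPA4L, a close relative, changed by -0.31 ± 0.08 in A549 and -1.11 ± 0.08 in MDA-MB-231. Its level of 44.8, 40.5 and 38.7 CPM in MDA-MB-231 3D stood well below 88.1, 87.2 and 92.4 CPM in MDA-MB-231 2D. HSPA4 changed by -0.25 ± 0.09 in A549 and -0.57 ± 0.09 in MDA-MB-231, and its A549 call was lost without A549 2D replicate 1 (log2 fold change -0.24, edgeR adjusted p = 0.0662) or replicate 2 (-0.23, edgeR adjusted p = 0.0718). The A549 call of HSPA4 was also lost when the 6 A549 libraries were fitted alone (-0.23, edgeR adjusted p = 0.0626) and with a trend on gene length removed (-0.10), which also ended that of HSPA4L.

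Of the 12 tested HSP70 genes, 2 rose (16.7%) and 5 fell (41.7%) in A549, against 34.1% and 31.5% of all genes. In MDA-MB-231, 4 rose (33.3%) and 3 fell (25%), against 33.4% and 34.2% of all genes. HSPA8, the most abundant, had 2742, 2843 and 3260.5 CPM in A549 3D, against 3794, 3831 and 3672 CPM in A549 2D, a change of -0.35 ± 0.08 on the log2 scale (edgeR adjusted p = 9.82e-04) with no overlap. In MDA-MB-231 its change of -0.08 ± 0.08 did not pass (edgeR adjusted p = 0.358). The difference between the 2 changes, -0.27, did not pass either, although it did without A549 3D replicate 1 (-0.21) or 3 (-0.35). HSPA1A and HSPA1B, adjacent copies on chromosome 6 with near-identical transcripts, encode the stress-inducible HSP70, and how the authors' counting split reads between them makes each value uncertain. Their summed level was 702, 607 and 686 CPM in A549 3D, against 543, 552 and 562 CPM in A549 2D, and averaged 251 ± 17.1 CPM in MDA-MB-231 3D and 188 ± 14.95 CPM in MDA-MB-231 2D (SD, n = 3 each). In both lines the summed level in each 3D library lay above that in each 2D library, which in A549 is the opposite of the order of HSPA8. Taken singly, HSPA1B rose in A549 (0.48 ± 0.08) and in MDA-MB-231 (0.34 ± 0.08), while HSPA1A rose in MDA-MB-231 (0.72 ± 0.11) and had 0.14 ± 0.10 in A549, which did not pass (edgeR adjusted p = 0.235).

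HSPA14 and DNAJC2, an HSP70 and a J-domain protein that form a complex on the ribosome which acts on nascent chains, fell in both lines. HSPA14 had 48.0, 45.5 and 49.2 CPM in A549 3D, against 97.7, 104 and 99.9 CPM in A549 2D (-1.07 ± 0.08, edgeR adjusted p = 1.19e-08). DNAJC2 had 20.4, 27.3 and 25.6 CPM in A549 3D, against 66.6, 64.6 and 56.0 CPM in A549 2D (-1.35 ± 0.11, edgeR adjusted p = 4.37e-08), the largest fall in A549 among the genes with a mean log2 CPM of at least 3. In MDA-MB-231 they fell by 0.26 for HSPA14 and by 0.94 for DNAJC2 on the log2 scale, with no overlap between 3D and 2D libraries. The fall of HSPA14 was larger in A549 (difference -0.82 ± 0.11, edgeR adjusted p = 1.39e-05).

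HSPA2, an HSP70 best known from the testis, rose in A549 and was close to undetected in the other line. It had 243, 222 and 226 CPM in A549 3D, against 80.1, 79.3 and 84.2 CPM in A549 2D (1.51 ± 0.09, edgeR adjusted p = 1.89e-09). The MDA-MB-231 libraries held 1.60, 1.10 and 1.64 CPM in 3D, against 2.11, 1.81 and 1.26 CPM in 2D, which overlapped (-0.28 ± 0.21, edgeR adjusted p = 0.27). The changes in the 2 lines differed by 1.78 ± 0.23 (edgeR adjusted p = 1.02e-05). HSPA12A, a distant HSP70 relative, fell in MDA-MB-231 (-0.86 ± 0.13) and had 0.05 ± 0.10 in A549, which did not pass.

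The HSP90 genes fell in A549 (3 of 3), against 31.5% of all genes. In MDA-MB-231, 1 fell, 1 rose and 1 did not pass, against 34.2% of all genes lower and 33.4% higher. HSP90AA1, the stress-inducible cytosolic form, had 1022, 861 and 738 CPM in A549 3D, against 1654, 1473 and 1483 CPM in A549 2D (-0.82 ± 0.10, edgeR adjusted p = 4.38e-06). It had 2417, 2499 and 2375 CPM in MDA-MB-231 3D, against 3546, 3338 and 3615 CPM in MDA-MB-231 2D (-0.53 ± 0.10, edgeR adjusted p = 2.68e-04), so neither line showed overlap. HSP90AB1 moved in opposite directions. It had 1198, 1222 and 1532 CPM in A549 3D, against 1801, 1733 and 1658 CPM in A549 2D (-0.39 ± 0.09), but 4317, 4672 and 4629 CPM in MDA-MB-231 3D, against 3689, 3629 and 3653 CPM in MDA-MB-231 2D (0.31 ± 0.09). The difference between the lines was -0.71 ± 0.13 (edgeR adjusted p = 2.82e-04), and the rise in MDA-MB-231 did not pass on the uncentred log2(TPM + 1) scale, where the change was -0.11. HSP90B1 had -0.32 ± 0.12 in A549, a call lost without A549 3D replicate 1 (-0.16, edgeR adjusted p = 0.0725), A549 2D replicate 1 (-0.30, 0.0787) or A549 2D replicate 2 (-0.31, 0.0770), with the 6 A549 libraries fitted alone (-0.29, 0.141) and with a trend on gene length removed (-0.21, 0.176).

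All 7 genes with an exact heat shock element match in the promoter fell in A549, against 31.5% of all genes. The call of HSPD1 was lost with the 6 A549 libraries fitted alone (-0.28, edgeR adjusted p = 0.0541). HSPE1, which lies head to head with HSPD1, was not counted among the 7 and did not pass in A549 (0.01). Of 55 other tested chaperones with a promoter sequence, 25 fell and 13 rose. The median log2 fold change was -0.39 for the 7 and -0.21 for the 55. Only exact matches near the start were searched, so the 55 may hold imperfect or more distant elements. In MDA-MB-231 the 7 split into 2 that rose, HSP90AB1 and HSPA6, 3 that fell, HSP90AA1, HSPD1 and DNAJA1, and 2 that did not pass, HSPA8 and DNAJB6 (median -0.08, against -0.11 for the 55). These counts come from 7 genes and were not tested. HSPA6, a strictly stress-inducible HSP70, was near the limit of detection. It had 0.125, 0.195 and 0.237 CPM in A549 3D, against 0.553, 0.797 and 0.731 CPM in A549 2D, and 0.533, 0.472 and 0.383 CPM in MDA-MB-231 3D, against 0.127, 0.136 and 0.217 CPM in MDA-MB-231 2D. Summed over 3 libraries, these rest on 8 counts in A549 3D, against 38 in A549 2D. For the other line they rest on 22 in MDA-MB-231 3D, against 11 in MDA-MB-231 2D. HSPA6 was picked for its promoter after its values were seen.

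Most CCT chaperonin genes fell in A549. Of the 8 tested CCT genes, 7 fell (87.5%) and 1, CCT6B, rose (12.5%), against 31.5% and 34.1% of all genes. This split of the 8 was the same under every alternative run for this comparison. CCT2 had 349.8, 358 and 396 CPM in A549 3D, against 697, 717 and 677 CPM in A549 2D (-0.92 ± 0.08, edgeR adjusted p = 3.83e-08). The others fell by 0.65 (CCT6A), 0.62 (CCT5), 0.51 (CCT4), 0.37 (CCT8), 0.37 (CCT3) and 0.33 (CCT7) on the log2 scale, and in each the 3 libraries in 3D lay below all 3 in 2D. Summed over these 7 subunits, the level was 3045, 3131 and 3443 CPM in A549 3D, against 4667, 4680.2 and 4548 CPM in A549 2D.

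In MDA-MB-231, 5 of the 8 fell (62.5%), 2 rose (25%) and 1 did not pass, against 34.2% of all genes lower and 33.4% higher. CCT6A had 564, 546 and 558 CPM in 3D, against 807, 736 and 808 CPM in 2D (-0.49 ± 0.07), and CCT2 (-0.32 ± 0.07), CCT8 (-0.34 ± 0.08) and CCT5 (-0.26 ± 0.07) fell as well, although the call of CCT5 was lost with a trend on gene length removed (-0.07). CCT3 rose, with 679, 667 and 669 CPM in MDA-MB-231 3D, against 538, 516 and 513 CPM in MDA-MB-231 2D (0.36 ± 0.08), and CCT7 rose by 0.35 ± 0.07. CCT4 had -0.05 ± 0.07, which did not pass (edgeR adjusted p = 0.506). On the uncentred log2(TPM + 1) scale CCT3 (-0.06) and CCT7 (-0.08) no longer passed as higher. The 7 subunits summed to 4036, 3869 and 3934 CPM in MDA-MB-231 3D, against 4346, 4138 and 4291 CPM in MDA-MB-231 2D. The change differed between the lines for CCT3 (-0.73 ± 0.12), CCT7 (-0.67 ± 0.10), CCT2 (-0.60 ± 0.11), CCT4 (-0.46 ± 0.09) and CCT5 (-0.35 ± 0.10), and that difference did not pass for CCT6A (-0.16 ± 0.10, edgeR adjusted p = 0.2) or CCT8 (-0.04 ± 0.12, edgeR adjusted p = 0.842).

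CCT6B, the form of subunit 6 described in testis, went against the rest at a level far below CCT6A. It had 7.15, 8.01 and 6.39 CPM in A549 3D, against 0.829, 1.28 and 0.955 CPM in A549 2D (2.77 ± 0.21, edgeR adjusted p = 1.94e-08), and 1.16, 0.944 and 1.37 CPM in MDA-MB-231 3D, against 1.81, 1.58 and 2.00 CPM in MDA-MB-231 2D (-0.64 ± 0.23, edgeR adjusted p = 0.0225). Its 3D libraries stood above all others in A549, and its fall in MDA-MB-231 was lost without MDA-MB-231 3D replicate 2 (-0.49, edgeR adjusted p = 0.120) or 2D replicate 1 (-0.63, 0.05001) or 3 (-0.56, 0.0761). Because CCT6B resembles CCT6A, reads shared by them are uncertain. TCP1, the first subunit of the ring, does not carry a CCT symbol and fell in both lines, by 0.39 in A549 and by 0.20 in MDA-MB-231.

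**Figure D3:**
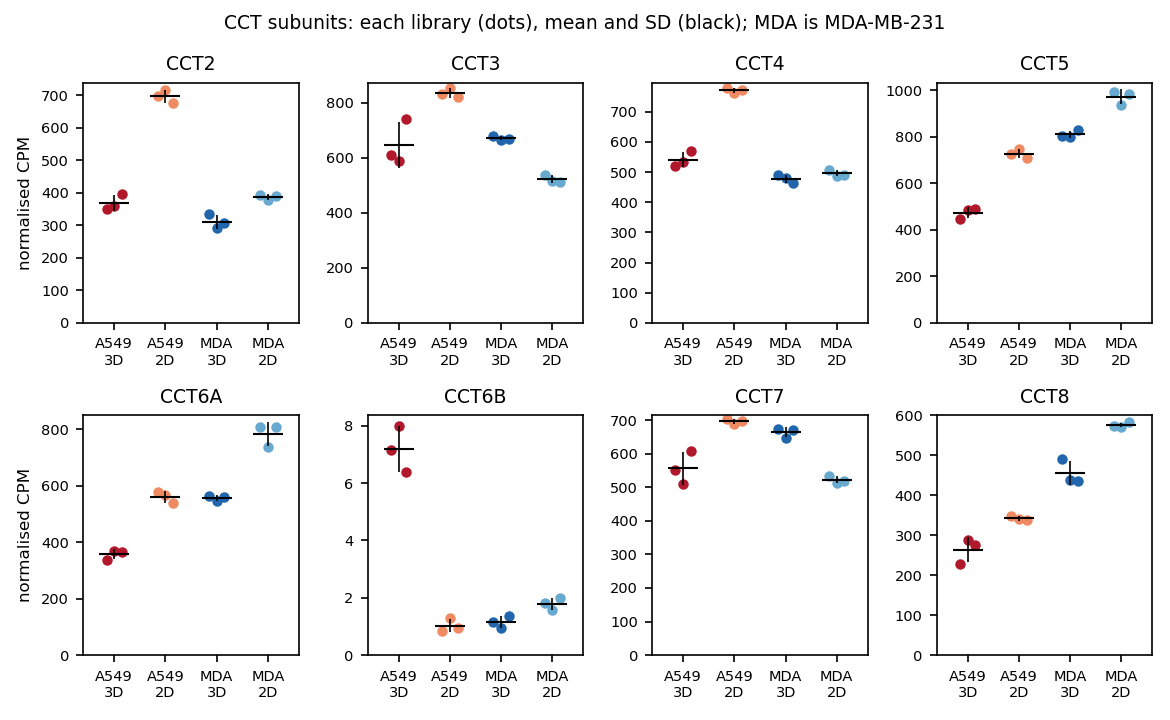
Normalised CPM of 8 CCT genes in each library (coloured dots), with group mean and SD (black, n = 3), for A549 3D, A549 2D, MDA-MB-231 3D and MDA-MB-231 2D. All genes but CCT6B lie lower in A549 3D than in A549 2D, while in MDA-MB-231 CCT3 and CCT7 lie higher in 3D.

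The small heat shock protein HSPB1 (HSP27), which holds unfolded proteins and acts on actin, rose in both lines, and its rise in MDA-MB-231 was the largest there among the 69 genes. It had 127, 96.5 and 132 CPM in A549 3D, against 57.3, 46.5 and 51.0 CPM in A549 2D (1.21 ± 0.13, edgeR adjusted p = 7.36e-07). In the other line it had 47.6, 55.4 and 57.6 CPM in MDA-MB-231 3D, against 15.6, 20.7 and 16.3 CPM in MDA-MB-231 2D (1.62 ± 0.14, edgeR adjusted p = 6.18e-08). Neither line showed overlap, and the difference between the changes did not pass (-0.41 ± 0.19, edgeR adjusted p = 0.0757), although it did without A549 3D replicate 3 (-0.49), MDA-MB-231 2D replicate 2 (-0.55) or MDA-MB-231 3D replicate 1 (-0.50). HSPB8, which works with BAG3 to send misfolded proteins to autophagy, fell in MDA-MB-231 with 2.67, 2.15 and 2.25 CPM in 3D, against 8.82, 9.26 and 8.33 CPM in 2D (-1.92 ± 0.18, edgeR adjusted p = 1.48e-07). In A549 it had 10.5, 8.59 and 14.3 CPM in 3D, against 8.29, 7.87 and 9.22 CPM in 2D, ranges that overlapped, and its call there (0.49 ± 0.15) was lost without A549 3D replicate 3 (0.20, edgeR adjusted p = 0.249).

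**Figure D4:**
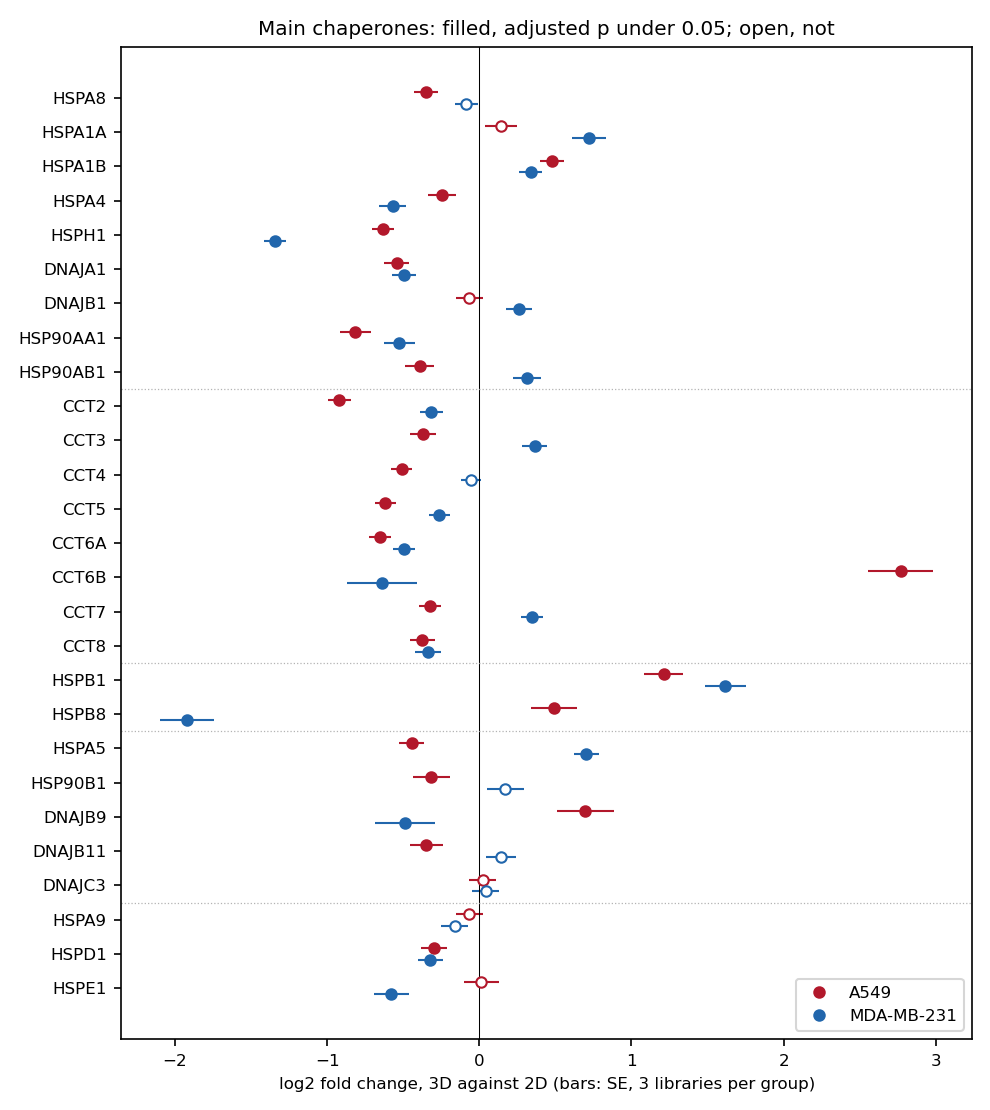
Log2 fold change in 3D against 2D (points) with standard error (bars) of 27 main chaperones in A549 and in MDA-MB-231; filled points passed an adjusted p of 0.05. From top to bottom the blocks are cytosolic HSP70 and HSP90 with partners, CCT subunits, small heat shock proteins, the endoplasmic reticulum and the mitochondrion; HSPB1 is right of 0 and HSPH1 left of 0 in both lines, and HSPA5 is on opposite sides.

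Among cytosolic J-domain proteins, DNAJA1, a main partner of HSPA8, fell in both lines. It had 342, 419 and 416 CPM in A549 3D, against 569, 592 and 554 CPM in A549 2D (-0.54 ± 0.08, edgeR adjusted p = 2.50e-05), and 359.9, 372 and 372 CPM in MDA-MB-231 3D, against 529, 498 and 530.4 CPM in MDA-MB-231 2D (-0.50 ± 0.08, edgeR adjusted p = 5.17e-05). The difference between the changes was -0.05 ± 0.11 and did not pass (edgeR adjusted p = 0.763). DNAJB1, the classical HSP40, rose in MDA-MB-231 (0.26 ± 0.08, edgeR adjusted p = 0.0134), a call lost without MDA-MB-231 2D replicate 3 (0.23, 0.0604), and had -0.07 ± 0.09 in A549, which did not pass. DNAJB4, its close relative, fell in MDA-MB-231 with 10.3, 8.13 and 7.67 CPM in 3D, against 22.7, 19.7 and 23.9 CPM in 2D (-1.37 ± 0.14, edgeR adjusted p = 4.17e-07), and had 0.02 ± 0.12 in A549, which did not pass.

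Of the 26 tested DNAJC genes, 7 rose (26.9%) and 11 fell (42.3%) in A549, against 34.1% and 31.5% of all genes. In MDA-MB-231, 7 rose (26.9%) and 10 fell (38.5%), against 33.4% and 34.2% of all genes. DNAJC9, which binds histones H3 and H4, fell in A549 with 52.8, 58.8 and 65.8 CPM in 3D, against 139, 140.2 and 132 CPM in 2D (-1.20 ± 0.09, edgeR adjusted p = 8.37e-09), and had 0.12 ± 0.08 in MDA-MB-231, which did not pass. DNAJC6 (auxilin), which uncoats clathrin vesicles, showed the largest fall among MDA-MB-231 genes with a mean log2 CPM of at least 3 and no overlap, with 9.95, 9.33 and 10.7 CPM in 3D, against 27.2, 29.2 and 27.7 CPM in 2D (-1.49 ± 0.10), and fell less in A549 (-0.52 ± 0.12). DNAJC5 (cysteine-string protein), which acts in vesicle release, rose in MDA-MB-231 with 175, 174 and 176 CPM in 3D, against 102, 106 and 94.1 CPM in 2D (0.80 ± 0.11), and had -0.22 ± 0.11 in A549, which did not pass. For these 3 genes the changes in the 2 lines differed, with edgeR adjusted p = 2.25e-07 for DNAJC9, 9.58e-05 for DNAJC6 and 4.72e-05 for DNAJC5.

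DNAJC12, a partner of the aromatic amino acid hydroxylases, rose in A549 with 38.6, 68.4 and 42.8 CPM in 3D, against 21.2, 19.5 and 19.1 CPM in 2D (1.29 ± 0.16, edgeR adjusted p = 3.74e-06). MDA-MB-231 held 2 counts of it in 3D and 5 in 2D, summed over 3 libraries. DNAJC15, a J-domain protein of the inner mitochondrial membrane, was the reverse case: it had 43.3, 45.7 and 42.3 CPM in MDA-MB-231 3D, against 43.1, 44.4 and 42.3 CPM in MDA-MB-231 2D, and almost none in A549. It had 0.125, 1.17 and 0.197 CPM in A549 3D, most of it in replicate 2. The A549 libraries held 12 counts in 3D and 1 in 2D, a ratio of 17.1 after library scaling with an exact 95% counting interval of 2.525 to 729.5. Its fitted log2 fold change in A549, 3.67 ± 1.02 (edgeR adjusted p = 0.00493), depends on the prior count and is no measure of size.

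Of the 14 tested chaperones of the endoplasmic reticulum, 3 rose (21.4%) and 7 fell (50%) in A549, against 34.1% and 31.5% of all genes. In MDA-MB-231, 4 rose (28.6%) and 5 fell (35.7%), near the 33.4% and 34.2% of all genes. The summed level of the 14 was 1536 ± 206 CPM in A549 3D, against 1885 ± 60.1 CPM in A549 2D, and 4116 ± 56.0 CPM in MDA-MB-231 3D, against 3401 ± 129 CPM in MDA-MB-231 2D (SD, n = 3 each). Most of the sum in MDA-MB-231 was HSPA5 and HSP90B1. HSPA5 averaged 1627 CPM in 3D, against 999 CPM in 2D, and HSP90B1 1840 CPM in 3D, against 1636 CPM in 2D. HSPA5 (BiP), the HSP70 of this compartment and a holder of the stress element printed above, had 254, 226 and 210.4 CPM in A549 3D, against 334, 295 and 309.5 CPM in A549 2D (-0.45 ± 0.08, edgeR adjusted p = 1.72e-04). In MDA-MB-231 it had 1625, 1628 and 1629 CPM in 3D, against 1011, 966 and 1020.5 CPM in 2D (0.70 ± 0.08, edgeR adjusted p = 1.30e-06). No libraries overlapped in either line, and the changes differed by -1.15 ± 0.11 (edgeR adjusted p = 6.37e-07). HSP90B1, which holds 2 such elements in the printed stretch, had 0.17 ± 0.12 in MDA-MB-231, which did not pass (edgeR adjusted p = 0.235) unless the 6 libraries of that line were fitted alone (0.17, edgeR adjusted p = 0.00621).

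The J-domain proteins of the endoplasmic reticulum named here, not all of them partners of HSPA5, moved in different directions. DNAJB11, which binds unfolded chains with HSPA5, fell in A549 (-0.35 ± 0.11) and had 0.14 ± 0.10 in MDA-MB-231, which did not pass (edgeR adjusted p = 0.225) unless the 6 libraries of that line were fitted alone (0.15, edgeR adjusted p = 0.0354). DNAJC3, an inhibitor of the stress kinase PERK, had 0.02 ± 0.09 in A549 and 0.04 ± 0.09 in MDA-MB-231, and neither passed (edgeR adjusted p = 0.851 and 0.71), although with a trend on gene length removed it rose in MDA-MB-231 (0.39, edgeR adjusted p = 0.00144). DNAJB9, which returns HSPA5 to the stress sensor IRE1, went the other way, with 34.5, 54.9 and 26.6 CPM in A549 3D, against 24.3, 22.8 and 21.0 CPM in A549 2D (0.70 ± 0.19, edgeR adjusted p = 0.00426). In MDA-MB-231 it had 12, 10.7 and 10.8 CPM in 3D, against 15.7, 13.4 and 17.7 CPM in 2D, and its call there (-0.49 ± 0.20, edgeR adjusted p = 0.0412) was lost when any of 5 of the 6 libraries of that line was left out, all but MDA-MB-231 2D replicate 2 (-0.39 to -0.53, edgeR adjusted p from 0.0566 to 0.146). DNAJB12 and DNAJB14, J-domain proteins of the endoplasmic reticulum membrane, parted in MDA-MB-231: DNAJB12 rose (1.16 ± 0.10, edgeR adjusted p = 7.51e-08) and DNAJB14 fell (-1.33 ± 0.20, edgeR adjusted p = 2.59e-05).

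**Figure D5:**
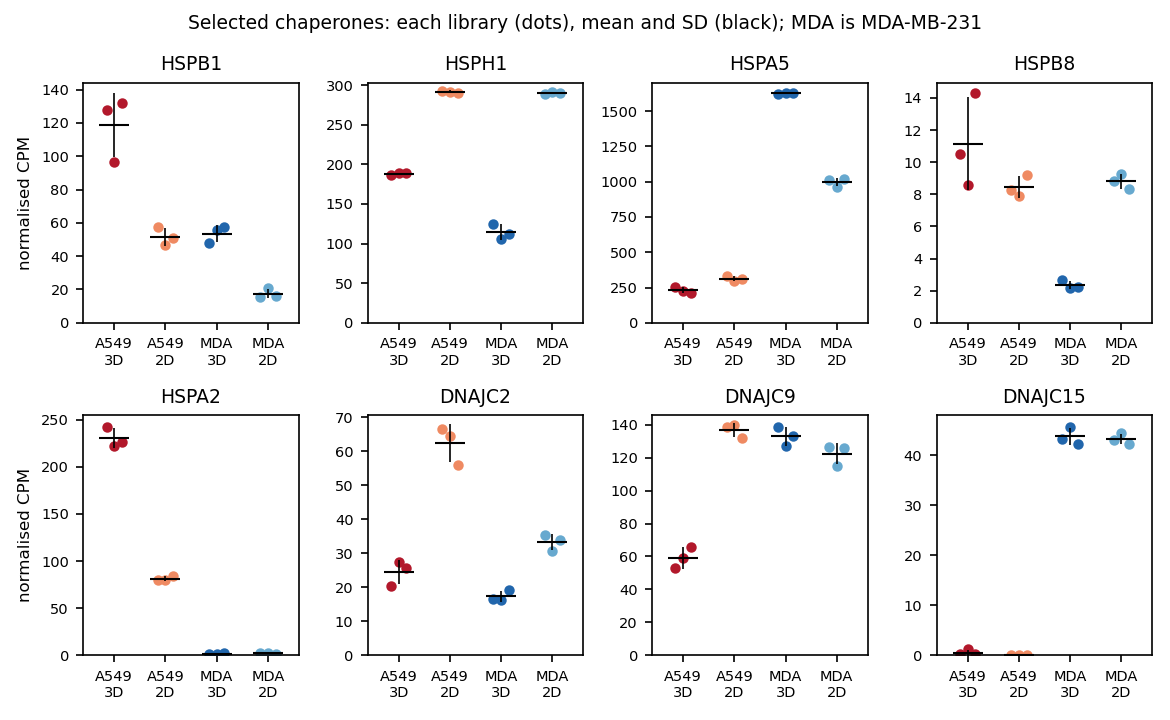
Normalised CPM of 8 chaperone genes in each library (coloured dots), with group mean and SD (black, n = 3), for A549 3D, A549 2D, MDA-MB-231 3D and MDA-MB-231 2D. HSPB1 is higher and HSPH1 lower in 3D of both lines, HSPA5 moves in opposite directions, and HSPA2 and DNAJC15 are each high in 1 line and near 0 in the other.

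Of the 9 tested mitochondrial chaperones, 2 rose (22.2%) and 3 fell (33.3%) in each line, against 34.1% and 31.5% of all genes in A549 and 33.4% and 34.2% in MDA-MB-231. The 2 in A549 came to 1 without A549 3D replicate 1 or 2 or A549 2D replicate 2. HSPA9 (mortalin), the HSP70 of the matrix, had -0.07 ± 0.09 in A549 and -0.16 ± 0.09 in MDA-MB-231, neither of which passed (edgeR adjusted p = 0.527 and 0.114). With the 6 MDA-MB-231 libraries fitted alone it passed there as lower (-0.16, edgeR adjusted p = 0.00889). HSPD1 and HSPE1 (HSP60 and HSP10), which form the mitochondrial chaperonin, lie head to head on chromosome 2. HSPD1 fell in both lines, by 0.30 in A549 and by 0.32 in MDA-MB-231, and its A549 call was lost with the 6 A549 libraries fitted alone (-0.28, edgeR adjusted p = 0.0541). HSPE1 fell in MDA-MB-231 with 139, 146 and 137 CPM in 3D, against 231.1, 180.0 and 219 CPM in 2D (-0.58 ± 0.11, edgeR adjusted p = 2.90e-04), and had 0.01 ± 0.11 in A549, which did not pass. DNAJC11, which belongs to the complex that shapes the inner membrane, had 42.7, 33.2 and 48.8 CPM in A549 3D, against 66.5, 67.9 and 67.4 CPM in A549 2D (-0.66 ± 0.10), but 119.5, 128 and 131 CPM in MDA-MB-231 3D, against 81.8, 77.6 and 75.1 CPM in MDA-MB-231 2D (0.69 ± 0.10). No libraries overlapped, and the changes differed by -1.35 ± 0.14 (edgeR adjusted p = 1.29e-06), the largest negative difference among genes with a mean log2 CPM of at least 3.

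Over all 69 genes, the change in 3D was more positive in A549 than in MDA-MB-231 for 19 and more negative for 23, against 29.3% and 26.7% of all genes (56.1% in all). By family, the difference was positive for 3 of 3 HSP110 genes, which fell less in A549, and negative for 5 of 8 CCT genes and 2 of 3 HSP90 genes. The HSP110 count loses HSPA4 without any of 8 of the 12 libraries, and the HSP90 count loses HSP90B1 without A549 2D replicate 1 or 2 or MDA-MB-231 2D replicate 2. The family medians were 0.71 for HSP110, -0.41 for CCT and -0.49 for HSP90, against 0.07 over all genes.

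Between the lines, 28 chaperone genes were higher and 30 lower in A549 than in MDA-MB-231 in 3D, against 43.9% and 39.2% of all genes (83% in all), and 27 were higher and 27 lower in 2D, against 42.8% and 38.8% (81.6% in all). With limma on log2(TPM + 1) the split was 10 higher and 52 lower in 3D (24 and 32 after centring) and 8 higher and 48 lower in 2D (26 and 30 after centring). These comparisons use the same libraries as those between 3D and 2D. HSPA2 was higher in A549 by 7.33 ± 0.14 on the log2 scale in 3D and by 5.55 ± 0.13 in 2D, and DNAJC22 by 4.58 ± 0.12 in 3D and by 4.00 ± 0.11 in 2D. DNAJC12 was 1101 times as high in A549 3D as in MDA-MB-231 3D, with a 95% counting interval of 304 to 9101, which rests on 2 counts in MDA-MB-231. DNAJC15 was 2366-fold lower in A549 2D than in MDA-MB-231 2D, with a 95% counting interval of 424 to 93500, which rests on 1 count in A549. For HSPH1 the difference in 2D did not pass (0.01 ± 0.07, edgeR adjusted p = 0.924), and in 3D it was higher in A549 (0.72 ± 0.07).

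Lower in A549 were HSPA5 (-2.82 ± 0.09 in 3D and -1.67 ± 0.08 in 2D), HSP90AB1 (-1.78 ± 0.10 and -1.08 ± 0.09), HSP90AA1 (-1.48 ± 0.10 and -1.19 ± 0.10) and DNAJB6, which keeps polyglutamine proteins from aggregating (-1.82 ± 0.07 and -1.33 ± 0.07). DNAJB5 (-2.22 ± 0.13 and -1.95 ± 0.12) and HSPB11, a subunit of the transport machinery of cilia (-1.22 ± 0.09 and -1.45 ± 0.09), were also lower. All 6 passed in 3D and in 2D, with no overlap between the lines. HSPA1A was higher in A549 by 2.75 ± 0.11 in 3D and 3.32 ± 0.11 in 2D, while its copy HSPA1B was higher by 0.49 ± 0.08 and 0.35 ± 0.08, and the sum of both, given above, was higher in each A549 library than in each MDA-MB-231 library. On the uncentred log2(TPM + 1) scale HSPA1B was lower in A549 in both cultures.

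The partners of these chaperones were read from 4 lists of further genes, whose counts stand against 34.1% higher and 31.5% lower over all genes in A549 and 33.4% and 34.2% in MDA-MB-231. Among 28 heat shock factors and co-chaperones of HSP70 and HSP90, 3 rose and 15 fell in A549 (median -0.31), and 10 rose and 13 fell in MDA-MB-231 (median -0.07). The 3 came to 5 without A549 3D replicate 2. CHORDC1, a co-chaperone of HSP90, fell in both, with log2 fold changes of -1.48 in A549 and -1.49 in MDA-MB-231. BAG1, a nucleotide exchange factor of HSP70, rose in A549 (1.29 ± 0.09, edgeR adjusted p = 7.79e-09). Its level was also higher in MDA-MB-231 3D, with 53.3, 62.5 and 60.5 CPM, against 43.6, 43.6 and 46.2 CPM in MDA-MB-231 2D. HSF1, the main heat shock factor, had 0.09 ± 0.14 in A549, which did not pass (edgeR adjusted p = 0.589), and rose in MDA-MB-231 (0.97 ± 0.14), where HSF2 fell (-1.29 ± 0.10). HSF1 was picked after its values were seen.

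Among 15 prefoldin subunits and partners of CCT, 10 fell and 5 did not pass in A549 (median -0.40), and 3 rose and 5 fell in MDA-MB-231 (median -0.01). Without A549 3D replicate 2, 3 of the 15 rose in A549, and the 5 that fell in MDA-MB-231 came to 3 without MDA-MB-231 3D replicate 2 or 3 or 2D replicate 1 or 3. PFDN4, a prefoldin subunit that hands actin and tubulin to CCT, fell in A549 (-0.97 ± 0.16, edgeR adjusted p = 8.87e-05) and in MDA-MB-231 (-1.61 ± 0.15, edgeR adjusted p = 1.96e-07). TBCB and TBCD, tubulin folding cofactors, rose in MDA-MB-231, by 1.06 ± 0.09 and 0.98 ± 0.10. The changes of TBCD in the 2 lines differed (-1.22 ± 0.14, edgeR adjusted p = 3.31e-06).

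Of 30 further genes of endoplasmic reticulum folding and the unfolded protein response, 12 rose and 9 fell in A549 (median 0.10), and 21 rose and 6 fell in MDA-MB-231 (median 0.59). These are 40% and 30% in A549, near the shares of all genes, and 70% and 20% in MDA-MB-231. XBP1, the transcription factor activated by IRE1, rose in A549 (2.48 ± 0.11, edgeR adjusted p = 4.47e-11), while ATF4, the factor translated after PERK acts, fell there (-0.71 ± 0.08). Counts per gene do not show the activity of IRE1 or PERK, which was not tested. P4HB, a protein disulfide isomerase, rose in MDA-MB-231 (1.44 ± 0.08), as did TRIB3, a target of ATF4 (1.53 ± 0.10). The changes differed between the lines for ATF4 (-1.36 ± 0.12) and TRIB3 (-2.07 ± 0.14, edgeR adjusted p = 1.29e-08). In the 15 genes of mitochondrial folding and proteolysis, 2 rose and 5 fell in A549 (median -0.13), and 9 rose and 4 fell in MDA-MB-231 (median 0.49). The 2 in A549 came to 4 without A549 3D replicate 2 and to 1 without A549 3D replicate 3. LONP1, the matrix protease, rose in MDA-MB-231 (1.05 ± 0.07), and GRPEL2, a nucleotide exchange factor of HSPA9, fell in A549 (-0.96 ± 0.15) and MDA-MB-231 (-1.62 ± 0.16). On the uncentred log2(TPM + 1) scale 9 of the 30 endoplasmic reticulum genes and 4 of the 15 mitochondrial genes rose in MDA-MB-231, and after centring 21 and 9 did.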

How the data were processed

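The 12 libraries, 3 in each of 4 groups, were made with the Illumina TruSeq Stranded Total RNA kit with Ribo-Zero Gold, per the labels' protocols. Per the submitters' processing notes, the authors used RSEM and the hg19 build; which RSEM version, aligner, annotation and strand option they chose is not given in the sources used here. The deposited tables list, per gene symbol, an expected count (reads assigned by a model that splits reads shared by several genes), a TPM value and an FPKM value, of which FPKM was not used. Each library in the files was taken as 1 replicate, and no pair was as alike as a repeated deposit.

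Expected counts were rounded to whole numbers and tested with edgeR 4.0.16 (R 4.3.3, quasi-likelihood test, default expression filter, TMM scaling) in a single fit of the 4 group means. It tested 15304 genes, with Benjamini-Hochberg adjustment over all of them and a threshold of 0.05. The 5 contrasts set 3D against 2D within either line, A549 against MDA-MB-231 in 3D and in 2D, and the difference of the 2 changes in 3D. Standard errors were computed from the fold change and its F statistic. Alternatives used limma 3.58.1 on log2(TPM + 1) and DESeq2 1.42.0. The code was tested on simulated data.

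Chaperone genes, lists and comparisons were chosen with earlier results of these data known. Genes named in the text were a fixed set of main chaperones, plus, per comparison, those with the largest changes that passed the threshold with a mean log2 CPM of at least 3 and no overlap between groups, 6 per direction for 3D against 2D and 5 for the others, and up to 3 genes per further list with the smallest p. Genes picked in another way are marked. Intervals cover counting error only. Reads shared with near-identical copies or processed pseudogenes, which chaperone genes have, are split by model and uncertain. Promoter coordinates are GRCh38.p14 from RefSeq and were used only for sequence, not with the hg19 counts.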

Additional observations from a re-analysis of the deposited data

Results flagged for a closer look

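In 32 of the named chaperones the change in 3D differed between the lines by the test of the difference itself (edgeR, adjusted p under 0.05). The values below are the log2 change in A549 minus that in MDA-MB-231. The difference was positive for DNAJC15 (3.65, on 12 and 1 counts in A549 3D and A549 2D), CCT6B (3.41), HSPB8 (2.41), HSPA2 (1.78), DNAJB4 (1.39), DNAJB9 (1.18), DNAJC6 (0.97), HSPA12A (0.91), DNAJB14 (0.90), HSPA4L (0.80), HSPH1 (0.71), HSPE1 (0.59), DNAJC22 (0.58) and HSPA4 (0.32).

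It was negative for DNAJC11 (-1.35), DNAJC9 (-1.32), HSPA5 (-1.15), DNAJC5 (-1.02), DNAJB12 (-1.01), HSPA14 (-0.82), CCT3 (-0.73), HSP90AB1 (-0.71), CCT7 (-0.67), CCT2 (-0.60), HSPA1A (-0.57), DNAJB6 (-0.49), DNAJB11 (-0.49), HSP90B1 (-0.49), CCT4 (-0.46), DNAJC2 (-0.41), CCT5 (-0.35) and DNAJB1 (-0.32). The calls of HSPA4, DNAJB1 and HSP90B1 were each lost without some single libraries: 8 of 12 for HSPA4 (0.25 to 0.34), 5 for DNAJB1 (-0.30 to -0.34) and 3 for HSP90B1 (-0.46 to -0.47). With a trend on gene length removed, the calls of DNAJB1 (-0.23), DNAJB11 (-0.34) and HSP90B1 (-0.42) were lost. Groups of 3 libraries are too small for a test of single outlying libraries, and none was made.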

How the results depend on the processing

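The counts over all 69 tested chaperones in each of the 5 comparisons stayed within 1.5 times of the reported ones under every alternative run except limma on log2(TPM + 1). Smaller counts, by family, compartment or both lines, moved more, as given above. There, 5 rose and 53 fell in A549, 7 rose in MDA-MB-231, 8 were higher and 48 lower in A549 than in MDA-MB-231 in 2D, and 10 were higher and 52 lower in 3D. After each library was centred on its median, which was chosen after seeing the data, these counts over all 69 were within 1.5 times. The same uncentred scale turned the direction between the lines for CCT7 (-0.39), DNAJC3 (-0.42) and HSPA1B (-0.44) in 2D, and for CCT2 (-0.70), CCT4 (-0.76), DNAJC3 (-0.56), HSPA1B (-0.45), HSPA4 (-0.51), HSPE1 (-0.58) and HSPH1 (-0.22) in 3D. On it the median of all genes moved by -0.56 in 2D and by -0.64 in 3D. Leaving out 1 library each gave 11 to 15 that rose and 32 to 38 that fell in A549, 18 to 19 and 27 to 31 in MDA-MB-231, 25 to 27 higher and 27 to 28 lower between the lines in 2D, 26 to 29 and 29 to 31 in 3D, and 16 to 19 and 20 to 27 for the difference of changes. Of 3132 alternative values for 174 named results, 2987 kept their call, 83 lost it, 52 gained it and 10 passed in the opposite direction. A change of sign where either value did not pass is not among the 10 and falls under kept, lost or gained. With the replicate number as a block, 13 rose and 34 fell in A549, 19 and 31 in MDA-MB-231, 26 were higher and 27 lower in 2D, 27 and 30 in 3D, and 18 and 22 for the difference. Deviations of same-numbered libraries correlated between -0.073 and 0.097, so the numbers were not taken as pairs. Depth limits HSPA6, DNAJC15 in A549 and DNAJC12 in MDA-MB-231, which rest on few counts.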
